A study of Homo sapiens with 2 samples.

Results

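FOS, FOSB, FOSL1 and FOSL2 are the 4 genes of the FOS family, and the JUNB peaks listed around them are described here. A peak was taken when its summit, the position of highest signal, lay within 100 kb of the RefSeq span of one of these genes on GRCh38. This took in 25 of the 32550 peaks of the untreated library and 17 of the 25739 peaks of the etoposide library, on chromosomes 1 to 22 and X. The 4 genes belong to 19974 protein-coding genes measured in the same way.

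JUNB binding was profiled by CUT&RUN, in which an antibody brings a nuclease to a chromatin protein and the released DNA is sequenced. The cells were IMR-90, a line of human lung fibroblasts. One condition was untreated and the other was treated with etoposide, a topoisomerase II poison that breaks DNA. The labels used here give no dose, duration or genetic change, and both conditions share the line and the JUNB antibody. There was 1 library per condition, so no difference below has a replicate check and no test of the treatment was made. Peak lists carry no expression values, so the fibroblast label could not be checked against marker genes.

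FOS proteins are leucine zipper transcription factors that do not form stable dimers among themselves. They pair with a JUN protein, JUNB among them, and the pair is the AP-1 factor, which binds the site TGANTCA. FOS and FOSB are immediate early genes, switched on within minutes by serum, growth factors and stress through the kinases ERK and p38. FOSL1 (FRA-1) and FOSL2 (FRA-2) respond later, last longer and lack the strong activation domain of FOS. AP-1 is known to act on genes of its own subunits, FOSL1 among them, and it marks many enhancers of fibroblasts, senescent ones included.

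No listed peak lay in any of the 4 genes or within 1 kb of one, in either library. The sequence around 3 gene starts is therefore shown as the place where no JUNB summit was listed. Each line runs from 100 bases before to 20 bases after the gene start, 5′ to 3′ on the plus strand of GRCh38.p14, from the RefSeq promoter table, which held 3 of the 4 members. Capitals mark the AP-1 site, the letters TGACG, which are the first 5 bases of the cyclic AMP response element TGACGTCA, and the TATA box TATAAA.

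FOS, chr14:75278728-75278847: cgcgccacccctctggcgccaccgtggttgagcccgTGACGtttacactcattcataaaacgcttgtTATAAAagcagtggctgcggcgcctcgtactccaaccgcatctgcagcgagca
FOSB, chr19:45467896-45468015: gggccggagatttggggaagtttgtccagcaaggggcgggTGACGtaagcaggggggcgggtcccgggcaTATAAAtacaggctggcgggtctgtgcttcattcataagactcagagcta
FOSL2, chr2:28392758-28392877: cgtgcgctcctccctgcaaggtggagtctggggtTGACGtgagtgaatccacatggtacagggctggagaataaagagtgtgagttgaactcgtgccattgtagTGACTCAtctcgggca

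TGACG began 64 bases before the start of FOS, 60 before that of FOSB and 66 before that of FOSL2. FOS and FOSB also had TATAAA, 33 and 30 bases before the start, and FOSL2 had none. FOSL2 held the only AP-1 site of the 3, beginning at base 5 of the gene. In the full windows of 300 bases, from 250 before the start to 50 after it, FOSL2 also had TGACG on the other strand, 201 bases before the start. None of the 3 windows held a full cyclic AMP response element or a CArG box, the core of the serum response element. Elements more than 250 bases before the start were outside the search, so this does not show that a promoter lacks them. Both strands of the 22132 such windows of 15812 protein-coding genes were searched. The AP-1 site was found in 6.15% of windows, the short element TGACG in 27.9% and the full element in 2.26%. A CArG box was found in 1.25% and the TATA box in 9.46%. The short element lies within the full one, so those counts overlap, and a CArG box can hold the letters of the TATA box. A match in letters does not show that a factor binds there.

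A listed summit lay in 4.23% of these windows in the untreated library and in 1.25% in the etoposide library. Windows with an AP-1 site held an untreated summit in 6.98% of cases and the others in 4.05%. For etoposide the shares were 4.70% and 1.03%. FOSL2 thus belonged to the large majority of windows with an AP-1 site and no listed summit. From the FOSL2 window the nearest summit was 53.3 kb away in the untreated list and 5.24 kb in the etoposide list. From the FOS window the nearest summits were 11.6 kb and 11.5 kb away, and from the FOSB window 10.9 kb and 10.5 kb.

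Absence of a peak inside the gene was common among genes of this size. A summit lay inside 33.4% of all protein-coding genes in the untreated and 27.7% in the etoposide list. Of the 10151 genes of at most 25 kb, a limit set to hold all 4 members, 13% and 7.93% had one inside. Within 1 kb the shares over all genes were 39.5% and 30.3%. The members span 3.40 kb (FOS), 7.18 kb (FOSB), 8.50 kb (FOSL1) and 24.5 kb (FOSL2). A list gives only signal above the threshold of the peak caller, so weaker JUNB signal in these genes is not seen. It also does not tell fewer bound cells from less binding per cell.

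**Figure D1:**
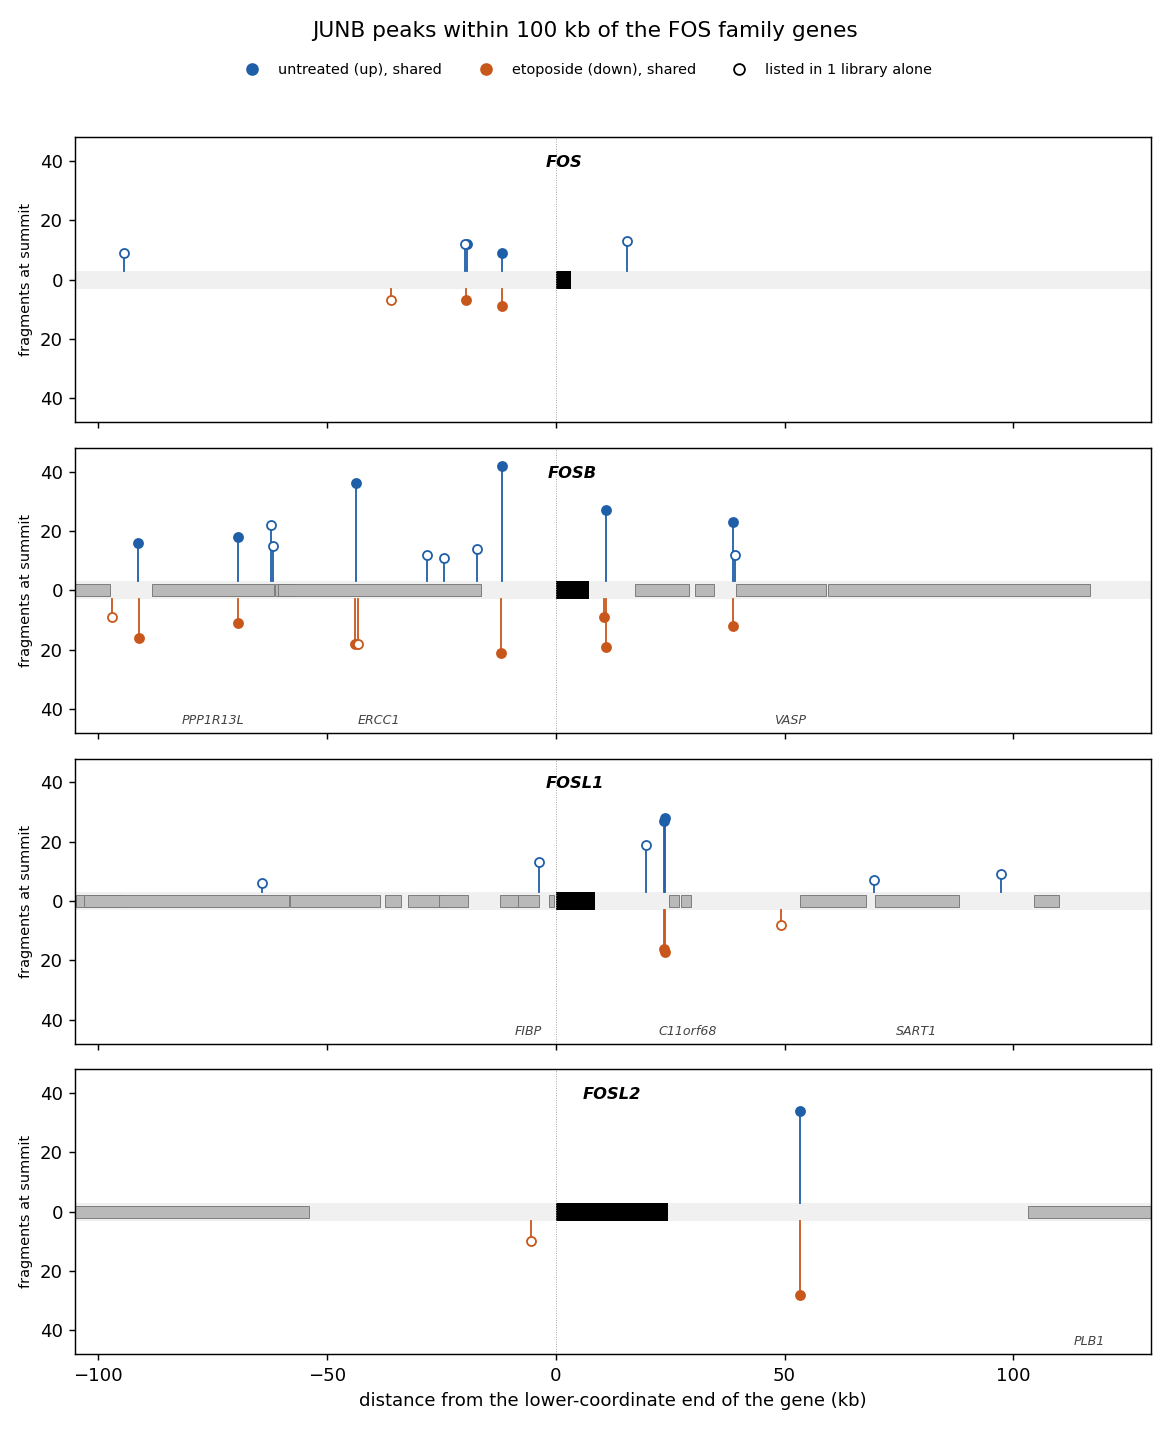
JUNB peaks around FOS, FOSB, FOSL1 and FOSL2, with the distance from the lower-coordinate end of the gene in kb on the x axis and fragments at the summit on the y axis. Untreated peaks point up and etoposide peaks down, filled points are shared between the lists, open points were listed in 1 library alone, the black box is the member and grey boxes are other protein-coding genes. FOSB is surrounded by 12 untreated and 9 etoposide summits, FOSL2 by 1 and 2, and no point falls on a black box; at 19 kb below FOS 2 untreated points lie almost on each other.

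The number of peaks differed widely between the members. FOS had 5 untreated and 3 etoposide summits within 100 kb, FOSB had 12 and 9, FOSL1 had 7 and 3, and FOSL2 had 1 and 2. Protein-coding genes had a median of 3 untreated (quartiles 1 and 5) and 2 etoposide summits (1 and 4), and 83.2% and 76.9% had at least 1. FOSB had more than 96.9% of genes in the untreated library and more than 96.2% in the etoposide library. FOSL2, at or under the median, had more than 16.8% and 41.5% of genes. FOS exceeded 66.4% and 58.8%, and FOSL1 82.4% and 58.8%. Windows of longer genes are wider, and per Mb of window FOSB had 57.9 and 43.4 summits, FOSL1 33.6 and 14.4, FOS 24.6 and 14.8, and FOSL2 4.46 and 8.91.

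Together the members had 25 untreated summits (exact 95% Poisson interval 16.2 to 36.9) and 17 etoposide summits (9.90 to 27.2). The ratio of etoposide to untreated was 0.68, with a 95% interval from counting alone of 0.371 to 1.25. That interval holds the ratio of all peaks, 0.791 (0.778 to 0.804), so by this interval no departure of the family from the whole lists was detectable. By gene the ratio was 0.6 at FOS (0.158 to 2.27), 0.75 at FOSB (0.324 to 1.74), 0.429 at FOSL1 (0.121 to 1.52) and 2 at FOSL2 (0.262 to 15.3). Each of these intervals contains 1. All of these intervals treat the 2 numbers as independent counts, though 11 of the untreated and 12 of the etoposide peaks were shared. The direction also turned with the choice of peaks: within 10 kb there were 2 untreated and 3 etoposide summits, a ratio of 1.5. Counting only peaks for which the member was the nearest protein-coding gene gave 6 and 7. In both choices 2 of the etoposide summits, those just past FOSB, overlapped the same 1 untreated peak. That place was thus counted once in the untreated list and 2 times in the etoposide list, so neither turn shows more places with etoposide.

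Distance from the gene to its nearest summit set the members in another order. FOSB had a summit at 3.76 kb in the untreated and at 3.33 kb in the etoposide library. FOSL1 had its nearest untreated summit at 3.65 kb and its nearest etoposide summit at 15.1 kb. For FOS the distances were 11.8 kb and 11.7 kb, and for FOSL2 28.9 kb and 5.49 kb. Genes had a median distance of 10.4 kb to an untreated and 24.9 kb to an etoposide summit. Genes of at most 25 kb had medians of 25.5 kb and 45.2 kb.

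Within 10 kb, FOSB had a peak in both libraries, FOSL1 in the untreated library alone, FOSL2 in the etoposide library alone and FOS in neither. These 2 of 4 members in each library compare with 49.6% and 38.9% of all genes, and with 34.5% and 22.3% of genes of at most 25 kb. An untreated summit alone was found at 15.3% of all genes and an etoposide summit alone at 4.61%. Within 50 kb all 4 members had a summit in both libraries, where 72% and 62.6% of genes did.

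**Figure D2:**
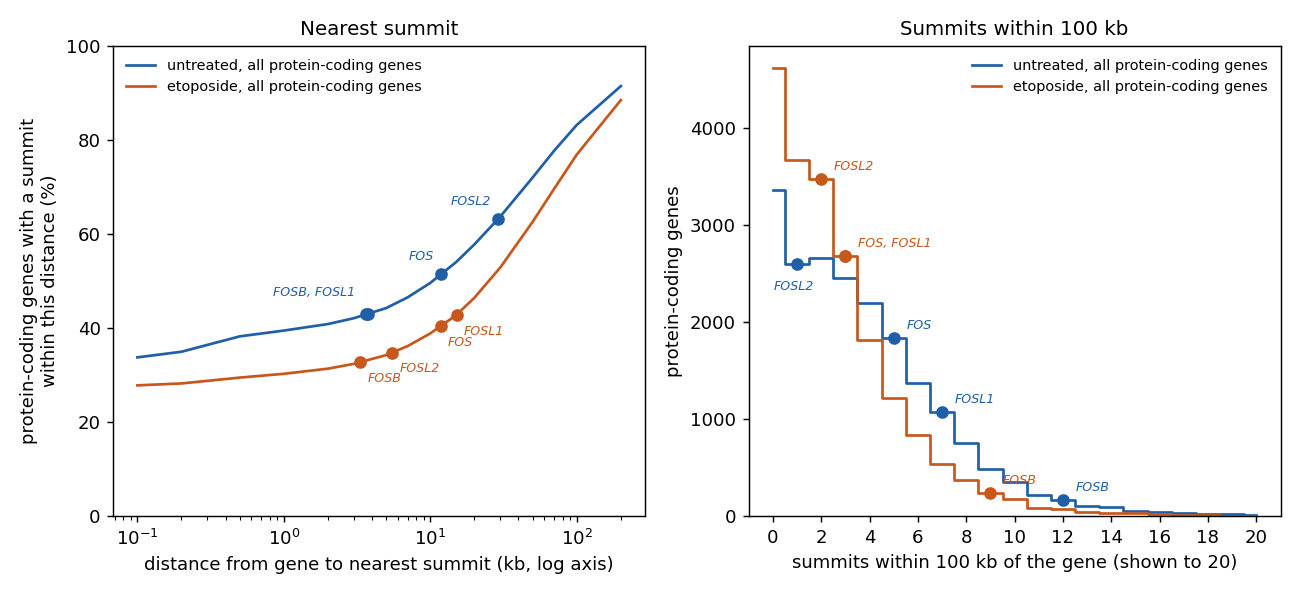
The members among all protein-coding genes. Left, the percentage of genes with a summit within the distance on the log x axis (kb), with the nearest summit of each member as a point on the curve of its library; right, the number of genes (y) with a given number of summits within 100 kb (x, shown to 20). Points of the 4 members lie between 3.33 kb and 28.9 kb on the left, and on the right FOSB lies in the tail at 12 and 9 summits while FOSL2 lies at 1 and 2.

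FOS, the founding member and the partner of JUN proteins in the immediate early response, lies at chr14:75278828-75282230. No other protein-coding gene lies within 100 kb of it. Its peaks were weak in both libraries. The 5 untreated summits held between 9 and 13 fragments, where the untreated list had a median of 15 (quartiles 11 and 21). The 3 etoposide summits held 7, 7 and 9, against a median of 13 (10 and 17).

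On the upstream side, the nearest place to FOS was shared. The untreated peak at chr14:75266957-75267158 had its summit 11.8 kb before the gene with 9 fragments, and the etoposide peak at chr14:75266961-75267204 had 9 fragments as well. These summits were 82 bp apart and ranked 21769 of 32550 and 13375 of 25739 by −log10 q. A second shared place lay 19.4 kb upstream, with 12 untreated and 7 etoposide fragments and summits 145 bp apart. Another untreated peak of 12 fragments, 19.9 kb upstream, had no overlapping etoposide peak, though the nearest etoposide summit was 0.363 kb from it.

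The other FOS peaks were each listed once. In the untreated library a peak 12.2 kb past the gene, in the non-coding gene LINC01220, had 13 fragments, and a peak 94.3 kb upstream, closer to TMED10 than to FOS, had 9. The etoposide library had a peak 35.9 kb upstream with 7 fragments. At those places the other list had no summit within 27.3 kb, 58.4 kb and 16.0 kb.

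FOSB, an immediate early gene whose shortened isoform is known for its long life in neurons, lies at chr19:45467996-45475179. With 8 other protein-coding genes within 100 kb, most of its peaks lay in or nearest to a neighbour. FOSB was the nearest protein-coding gene for 1 of its 12 untreated and 2 of its 9 etoposide summits. ERCC1, a subunit of an excision repair nuclease, held 4 untreated and 2 etoposide summits, and PPP1R13L, which encodes the p53 inhibitor iASPP, held 3 and 1.

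The strongest untreated peak of the family lay between FOSB and ERCC1. It covered chr19:45455969-45456539, with its summit 11.8 kb before FOSB and 4.61 kb from ERCC1, and it held 42 fragments and ranked 906. The etoposide counterpart at chr19:45455969-45456425 held 21 fragments and ranked 2975. It was the second strongest etoposide peak of the family, after the FOSL2 peak described below.

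Just past FOSB the listed intervals differed between the libraries. An untreated peak at chr19:45478337-45479096 had its summit 3.76 kb from the gene with 27 fragments, and it covered all 87 bp of TRU-TCA1-1, a gene for the selenocysteine transfer RNA, at chr19:45478601-45478687. In the etoposide list 2 peaks lay there instead, at chr19:45478130-45478552 with 9 fragments and at chr19:45478894-45479110 with 19 fragments. Neither included a base of the transfer RNA gene. Signal under the threshold is not listed, so weaker etoposide signal between these peaks, over that gene, is not seen. The untreated and the stronger etoposide summit were 59 bp apart, outside the transfer RNA gene by 250 bp and 309 bp. The weaker etoposide summit lay on the other side of that gene, 90 bp from it. Of 443 transfer RNA genes, 0.903% were overlapped by an untreated and 0.226% by an etoposide peak. This set was chosen after the place had been seen.

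A similar division was found inside ERCC1, 43.6 kb before FOSB. The untreated list had 1 peak of 753 bp there with 36 fragments, at chr19:45423734-45424486. The etoposide list had 2 peaks of 469 bp and 209 bp with 18 fragments each, and the second did not overlap the untreated peak, its summit lying 0.366 kb from the untreated one. Other shared places were inside PPP1R13L (18 and 11 fragments), 2.86 kb from PPP1R13L (16 and 16) and 0.75 kb from VASP, a gene for an actin regulator (23 and 12).

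Single-library peaks around FOSB were mostly untreated and mostly weak. In the untreated library they held 22 and 15 fragments inside PPP1R13L, 12, 11 and 14 in ERCC1, and 12 beside VASP. The peak of 22 fragments, at chr19:45405544-45405772, was the strongest of all 14 untreated peaks without a counterpart near the family and ranked 7181. The nearest etoposide summit was 7.18 kb away. The etoposide library alone had a peak 0.324 kb from ERCC2 with 9 fragments.

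FOSL1, which encodes FRA-1, lies at chr11:65892049-65900545 among 14 other protein-coding genes. It was the nearest gene of none of its 7 untreated and 3 etoposide summits. Its strongest place was a pair of adjacent peaks 15.2 kb and 15.5 kb beyond the higher-coordinate end, next to C11orf68. The untreated peaks at chr11:65915551-65915817 and chr11:65915936-65916344 held 27 and 28 fragments. Their etoposide counterparts at chr11:65915589-65915800 and chr11:65915931-65916143 held 16 and 17. Both libraries thus showed the same doublet, with summits 108 bp and 10 bp apart between libraries.

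The remaining FOSL1 peaks had no counterpart, and 5 were untreated and 1 was from the etoposide list. Nearest to the gene was the untreated peak at chr11:65888223-65888449, 3.65 kb away and inside FIBP, with 13 fragments, rank 21743 and its nearest etoposide summit 27.25 kb away. An untreated peak 11.2 kb away held 19 fragments, and the others, 61.0 kb to 88.8 kb away, held 6, 7 and 9. The etoposide peak, 40.8 kb away and nearest to TSGA10IP, held 8.

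FOSL2, which encodes FRA-2, lies at chr2:28392858-28417317. It had the fewest peaks of the 4 genes. One place 28.9 kb past the gene was shared, at chr2:28445841-28446385 in the untreated and chr2:28446110-28446360 in the etoposide list, with summits 23 bp apart. It held 34 untreated and 28 etoposide fragments and ranked 1808 and 1426, in the strongest 5.56% and 5.54% of the lists. FOSL2 was its nearest protein-coding gene.

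The only other FOSL2 peak was in the etoposide library, at chr2:28387271-28387464. Its summit lay 5.49 kb before the gene, inside the antisense transcript gene FOSL2-AS1, with 10 fragments and rank 17654. The nearest untreated summit was 58.9 kb away.

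**Figure D3:**
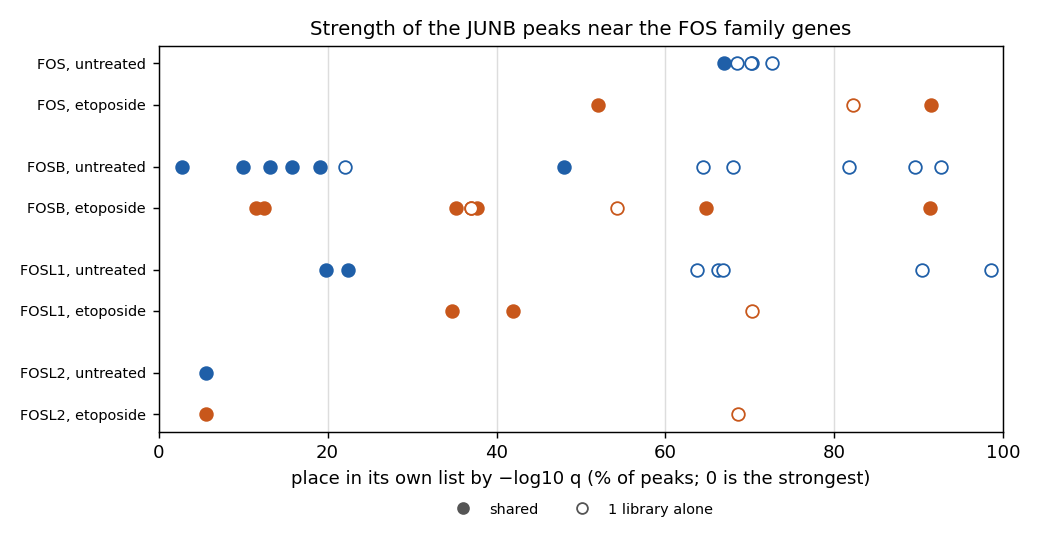
Strength of each peak near the members, as its place in its own list by −log10 q (x axis, % of peaks, 0 the strongest), by gene and library (y axis). Filled points are shared and open points were listed in 1 library alone; the FOS points all lie beyond 51%, while FOSL2 has a shared point at 5.56% and 5.54%.

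Across the family 11 of 25 untreated peaks had a counterpart, 44% (95% Wilson interval 26.7% to 62.9%), where 51% of all untreated peaks did. Of the etoposide peaks 12 of 17 did, 70.6% (46.9% to 86.7%), where 64.8% of all did. Both intervals contain the share of the whole list. Applying the shared share of peaks of like strength, in 10 equal parts of each list, would give 12.7 of 25 and 10.9 of 17. Shared peaks were stronger: they had medians of 27 untreated and 16 etoposide fragments, against 12 and 9 for those of 1 library alone. Over all peaks these medians were 19 and 14 for shared, and 12 and 10 for single peaks.

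Of the 19 single-library peaks, 14 untreated and 5 etoposide, 3 had a summit of the other list within 500 bp and so were near misses of the overlap rule. Of all single-library peaks, 11.6% and 13.0% had one. For the other 16 the nearest was 3.89 kb to 87.8 kb away. Peak lists carry no sequencing depth, and its part in these single-library peaks was not tested. The lowest background in the etoposide list was 0.782 times that in the untreated list.

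Fragments at the 11 shared untreated peaks were then set against the counterpart with the nearest summit. The etoposide number was lower at 9 of 11, as at 12192 of all 16610 shared peaks, and equal at 2, the FOS place at 11.8 kb and the place near PPP1R13L at 91.2 kb. The ratios of etoposide to untreated ran from 0.5 to 1, with a median of 0.607. Over all 16610 shared peaks the median was 0.778 (quartiles 0.621 and 1). Over all shared peaks this ratio differed with the untreated number. The median was 1.11 for pairs with 9 untreated fragments and 0.619 for pairs with 42, and the cause was not tested. The ratios near the family are therefore also given beside pairs with the same untreated number. None is corrected for local background, which was lower in the etoposide list at every one of these places. Fold, the ratio of summit signal to that background, was higher with etoposide at both places of equal fragments (6.74 and 7.26 at FOS, 6.65 and 7.26 at 91.2 kb). It was also higher next to the transfer RNA gene (8.97 and 10.1). It was almost equal at the FOSL1 doublet (6.811 and 6.717, 7.055 and 7.059) and lower at the other places.

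At the strongest place before FOSB the ratio was 0.5 (95% counting interval 0.298 to 0.839), and the 83 pairs with 42 untreated fragments had a median of 0.619 and a lower quartile of 0.524. Inside ERCC1 it was 0.5 (0.286 to 0.874), where pairs of 36 fragments had a median of 0.583. These were the 2 of 11 that lay under the overall median divided by 1.5, as did 11% of all pairs, and none of the 11 lay over 1.5 times the median, as did 12.5%. Beside VASP the ratio was 0.522 (0.263 to 1.04), under the lower quartile of its like pairs, 0.565, and at the peak next to the transfer RNA gene 0.704 (0.395 to 1.26).

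FOSL2 had a ratio of 0.824 (0.502 to 1.35), above the upper quartile, 0.794, of the 186 pairs with 34 untreated fragments. The FOSL1 doublet had 0.593 (0.322 to 1.09) and 0.607 (0.335 to 1.10), inside the quartiles of their like pairs. FOS had 0.583 (0.237 to 1.44) at 19.4 kb, below the lower quartile, 0.75, of pairs with 12 fragments, and 1 (0.409 to 2.45) at 11.8 kb. Inside PPP1R13L the ratio was 0.611 (0.294 to 1.27), and near it 1 (0.507 to 1.97). All 11 intervals contain the overall median, so at this depth no pair departed from the whole list beyond counting error.

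**Figure D4:**
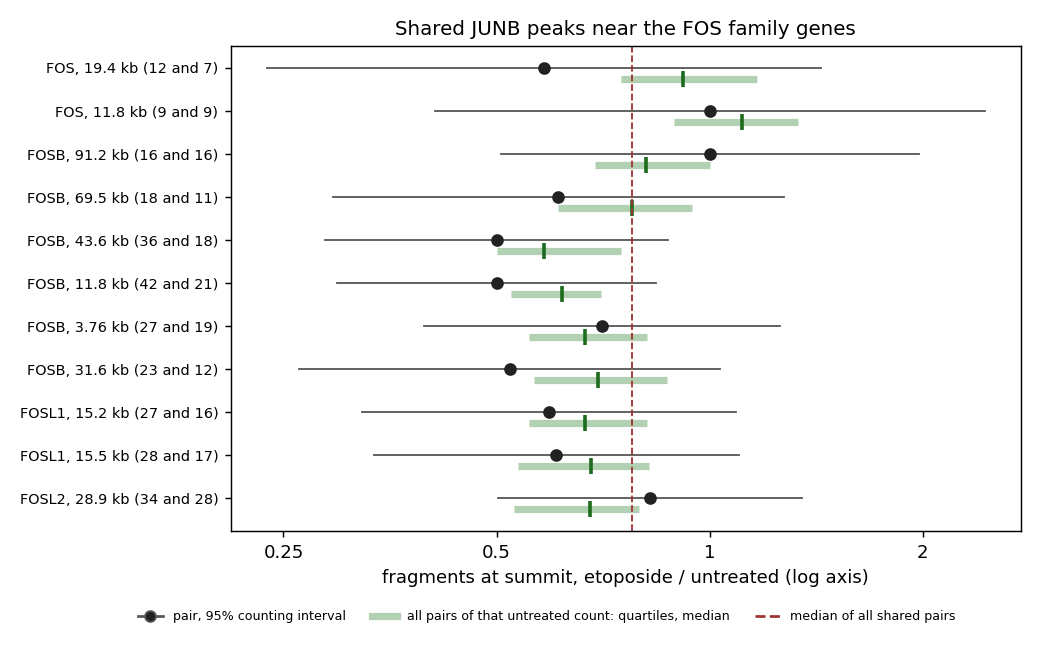
Ratio of etoposide to untreated fragments at the 11 shared places (x, log axis), each labelled by member, distance and both numbers. Black points have 95% counting intervals, green bars show the quartiles and median of all pairs with the same untreated number, and the dashed line is the median of all shared pairs, 0.778; every interval crosses the dashed line.

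Genes that work with the FOS family were counted in the same way. The lists were JUN dimer partners, upstream regulators of FOS (the SRF, ELK and MRTF factors, CREB and STAT factors, their coactivators, and kinases of the ERK and p38 pathways) and other immediate early genes. Of 24 upstream regulators, 20 had an untreated and 17 an etoposide summit within 10 kb, and 16 had a summit inside in each library. The share over all genes was 33.4% and 27.7% inside, and many regulators are far longer than any member. Of 20 other immediate early genes 15 and 10 had one within 10 kb, with 6 and 3 inside. Of the dimer partners only JUND had one, in the untreated library, 0.535 kb away. JUN had its nearest summits 16.5 kb and 16.2 kb away, and JUNB 159.9 kb and 240.3 kb.

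Over the 3 lists 36 of 47 genes (76.6%) had an untreated and 27 (57.4%) an etoposide summit within 10 kb, above the 49.6% and 38.9% of all genes. Genes with a summit in the untreated library alone numbered 9, or 19.1% beside 15.3% of all genes, and were JUND, ELK1, RPS6KA1, RPS6KA5, NR4A2, BTG2, ZFP36, KLF6 and MAFF. None had one in the etoposide library alone, the pattern of FOSL2 and of 4.61% of all genes. MRTFA, a coactivator of SRF, had the most summits within 10 kb, 8 and 5 over a span of 226.4 kb. RPS6KA2, an RSK kinase, had 7 and 4 over 453.4 kb, and SGK1, a serum-induced kinase, 6 and 3 over 148.9 kb. Longer genes take in more peaks, and the part of length in these numbers was not tested.

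Each member had the same numbers of peaks as some other genes. Likeness was measured over the 3 numbers of untreated, etoposide and shared untreated peaks within 100 kb. Genes identical in all 3 were counted on other chromosomes, out of 19974 protein-coding genes in all. High numbers leave fewer genes to match: 1836 genes had 5 untreated summits and 165 had 12. The number of matches therefore does not show how common a pattern is. FOSL2 shared its numbers with 276 genes, among them RNF34 and MAP3K10 as the nearest in length. FOS shared them with 213, of which OPN1SW and CFL1 were nearest, and FOSL1 with 52, of which CCDC159 and HMGA1 were nearest. CFL1 lies 33.9 kb from FOSL1, so its window takes in peaks that were counted at FOSL1 as well. FOSB shared its numbers with 8 genes, the nearest in length being CD9 and USP12.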

How the data were processed

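The data were the authors' 2 peak lists, 1 per library, in narrowPeak layout. Bowtie2, MACS2 and the build hg38 are named in the submitters' processing notes, with no settings; mm10 is named as well, and contig names here are human. The deposited fold is the ratio of summit signal to local background, and the deposited −log10 p and −log10 q belong to the summit. The authors' score repeats −log10 q, multiplied by 10 and cut to a whole number, and was not used. No control library was used here.

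Summits were set against gene spans of RefSeq GRCh38.p14, counted from 1. Peaks with at least 1 bp in common were shared. Fragments at the summit were solved from the deposited fold, (k + 1)/(b + 1), and −log10 p, the Poisson tail above k at background b; this gave a whole k for 100% of peaks within 0.001. The method was tested on simulated data. Median summit pileups were 15 and 13. Intervals are Wilson or exact Poisson and cover counting error only. Python 3.11.15, scipy 1.17.1 and pandas 2.3.3 were used.

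Members and lists were chosen with earlier results of these data known. All member peaks were described, neighbours were named where a described peak lay in or nearest to them, and list genes where 1 library alone had a summit within 10 kb or for the 3 highest numbers. Alternatives changed the window, threshold, overlap rule and gene assignment. Peaks on Y and on contigs outside the chromosomes were left out. The 25 kb and 500 bp limits, the pairs of equal untreated number, the motifs TGACG and TATAAA and the transfer RNA comparison were added after the data had been seen.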

Additional observations from a re-analysis of the deposited data

How the results depend on the processing

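Of 92 alternative values, 56 stayed within the main interval or within 1.5 times the main number and 36 did not. No paired analysis was possible because each condition had 1 library. Within 10 kb there were 2 untreated and 3 etoposide summits (ratio 1.5): 0 and 0 at FOS, 1 and 2 at FOSB, 1 and 0 at FOSL1, 0 and 1 at FOSL2. Within 50 kb, among the numbers of summits, only the untreated one at FOSL1 moved, to 4. Keeping the 10000 strongest peaks per library left 9 untreated and 8 etoposide summits. These were 0 and 0 at FOS, 6 and 6 at FOSB, 2 and 1 at FOSL1 and 1 and 1 at FOSL2. The untreated shared share was then 66.7%. With the member as nearest gene there were 6 and 7, with 66.7% of untreated peaks shared. These were 4 and 3 at FOS, 1 and 2 at FOSB, 0 and 0 at FOSL1 and 1 and 2 at FOSL2. The ratio turned above 1 there as well, at 1.17. Within 10 kb and with the member as nearest gene, the 2 etoposide summits at FOSB overlapped the same 1 untreated peak. Members with a nearby summit numbered 1 and 1 among the strongest peaks, 4 and 4 within 50 kb and 0 and 0 within 1 kb. Genes of the 3 lists numbered 16 and 14 among the strongest peaks. The share of all genes under that cut is not given, so these numbers have no comparison. An untreated list reduced to the number of etoposide peaks, chosen after the data had been seen, gave 20 untreated summits and a ratio of 0.85. Peak lists hide signal under the threshold, which limits every absence given here.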
